A study of Mus musculus with 3 samples.

Results

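The 9 genes described here encode chemokines that myeloid cells are known to make. These are the CXC ligands Cxcl1, Cxcl2, Cxcl3 and Cxcl16 and the CC ligands Ccl2, Ccl3, Ccl4, Ccl6 and Ccl9. They were chosen by symbol, not by level, though earlier results of these data were known at that point. They are 9 of the 26655 genes with a value. RNA-seq was run on granulocytic myeloid-derived suppressor cells (G-MDSCs), neutrophil-like cells that are known to expand in tumor-bearing hosts and to restrain T cells. The cells came from peripheral blood of C57BL/6J mice, given as 8 to 10 weeks old in the methods, and the labels describe them as CD11b+Gr1+. By the methods, Ly6G-positive cells were taken out magnetically. The mice were normal, or had carried a subcutaneous B16F10 melanoma, a transplantable tumor line from C57BL/6 mice, for 2 weeks (called 2Ws) or 3 weeks (called 3Ws). Each of these conditions gave 1 of the 3 libraries. The normal library is numbered 1 in its sample title but 2 in the header of its values, and it was taken as the normal sample because no other is labelled so, which every ratio to normal mice rests on. One label field gives the tumor times in months, whereas the sample descriptions and the methods give weeks, which are used here. The number of mice behind a library is not given in the sources used here, and no condition has a replicate, so no test between conditions was possible.

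Values are FPKM, a fragment count scaled to gene length and library depth, from which whole reads per gene were recovered (library totals of 16549246 to 17325747). Every one of the 9 genes had whole reads in each library. Intervals are exact 95% Clopper-Pearson intervals of these reads and cover counting error only, not differences between mice. A gene was called higher or lower where it reached 1 FPKM in 1 of the 2 libraries and the ratio of FPKM plus 1 was at least 2-fold. Called, with no rule named, refers to this 2-fold rule. A second, read-based rule asked for at least 2-fold in reads per library total and an adjusted p under 0.05 in an exact binomial test, which compares 2 libraries and not 2 conditions. The median log2 ratio of genes expressed in both libraries was 0.00 for 2Ws, but -0.18 for 3Ws, each against normal, and -0.16 for 3Ws against 2Ws. Both comparisons with normal mice share the normal library. The methods implanted tumors in female mice, yet the Y-linked gene Ddx3y stood at 19.9, 0 and 23.1 FPKM and Xist, transcribed from the inactive X chromosome, at 0.00966, 24.7 and 0 FPKM in normal, 2Ws and 3Ws. The normal and 3Ws libraries thus hold Y-linked RNA and the 2Ws library does not, and the part of sex in the results below was not tested. The neutrophil markers fitted the label, with all 11 listed genes at 1 FPKM or more and summed levels of 45625, 49930 and 68517 FPKM in normal, 2Ws and 3Ws. The sum is mostly S100a8 and S100a9, and single markers went both ways. At 3Ws against normal 2 were called higher (Mmp8 and Retnlg) and 2 lower, the granule genes Camp (742.6, 324.8 and 221.6 FPKM in normal, 2Ws and 3Ws) and Ltf (626.0, 314.4 and 249.9 FPKM).

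Chemokines are small proteins that guide leukocytes by binding receptors coupled to G proteins. Cxcl1, Cxcl2 and Cxcl3 carry a Glu-Leu-Arg motif before the CXC cysteines, bind Cxcr2 and draw neutrophils. Neutrophils also make Cxcl2 themselves. Ccl3, Ccl4, Ccl6 and Ccl9 are CC chemokines, of which Ccl3, Ccl6 and Ccl9 bind Ccr1. Ccl2 binds Ccr2 and draws monocytes. Cxcl16 is unusual in being made as a membrane protein that binds Cxcr6 and can be shed by proteases.

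The 9 genes lie at only a few places in GRCm38. Cxcl3 (chr5:90786103-90789600), Cxcl1 (chr5:90891241-90893115) and Cxcl2 (chr5:90903871-90905938) are neighbours on the plus strand of chromosome 5. Ccl9 (chr11:83572919-83578636), Ccl6 (chr11:83587882-83593087) and Ccl3 (chr11:83647844-83649355) are on the minus strand of chromosome 11, next to Ccl4 (chr11:83662584-83664683) on the plus strand. Ccl2 (chr11:82035571-82037453, plus strand) and Cxcl16 (chr11:70453983-70459984, minus strand) stand apart on the same chromosome. The coded proteins of Cxcl2 and Cxcl3 share 82 of 100 residues, and their transcripts share a run of 110 bases, so reads of this pair can be hard to place. Identity was 67.7% for Cxcl1 and Cxcl2, 60.4% for Ccl3 and Ccl4 and 56.2% for Ccl6 and Ccl9, with shared runs of at most 25 bases. Exons of Cxcl16 overlap exons of Zmynd15 on the other strand by 552 bases. Zmynd15 stood at 0.144, 0.137 and 0.0133 FPKM in normal, 2Ws and 3Ws, and reads of the shared bases cannot be assigned if strand was not used.

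Promoters of 6 of the 9 genes were in the RefSeq table for GRCm38.p6. They were searched on both strands, over 250 bases before the start, for a kappa B motif (GGGANNTTC), a TATA motif (TATAAA) and an AP-1 motif (TGANTCA), which 3.23%, 12.4% and 6.75% of all 32851 promoters hold. The sequences below are shown because Cxcl1, Cxcl2 and Cxcl3 share a motif near the start but differ in RNA level, whereas Ccl9 has the others. Each runs 5′ to 3′ on the strand of its gene, from base -130 to base -31 relative to the start, and capitals mark the motif matches.
Cxcl1 (chr5:90891115-90891214, plus strand): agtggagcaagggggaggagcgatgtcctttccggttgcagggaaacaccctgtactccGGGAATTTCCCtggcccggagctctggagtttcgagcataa
Cxcl2 (chr5:90903769-90903868, plus strand): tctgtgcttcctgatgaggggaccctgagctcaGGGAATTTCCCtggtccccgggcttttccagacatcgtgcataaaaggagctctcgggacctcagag
Cxcl3 (chr5:90785971-90786070, plus strand): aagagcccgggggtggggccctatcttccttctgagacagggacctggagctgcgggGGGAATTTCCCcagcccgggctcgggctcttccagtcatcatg
Ccl9 (chr11:83578667-83578766, minus strand): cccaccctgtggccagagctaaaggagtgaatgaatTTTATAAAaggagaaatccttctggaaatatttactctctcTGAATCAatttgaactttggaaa
In Cxcl1 (-71 to -61), Cxcl2 (-97 to -87) and Cxcl3 (-73 to -63) the kappa B letters gave 2 overlapping matches, 1 on each strand. TATAAA was found in Cxcl3 (-30 to -25) and 3 times in Ccl9, where a plus-strand and a minus-strand match overlap, and TGANTCA in Ccl9 (-53 to -47). None of the 3 motifs was found in the windows of Ccl3 and Ccl6. A match describes letters and is not evidence of a bound factor.

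Ccl6 made up most of this chemokine RNA in every library. Its level was 1143, 1226 and 1146 FPKM in normal, 2Ws and 3Ws, which ranked it 19, 16 and 23 among all genes. It held 95.5%, 96.5% and 95.6% of the summed FPKM of the 9 genes. In normal mice the order below it was Ccl9 (30.8 FPKM), Ccl3 (10.4), Ccl4 (7.70), Cxcl2 (2.90) and Cxcl16 (1.03), and Ccl2, Cxcl1 and Cxcl3 lay under 1 FPKM. The intervals of Ccl3 and Ccl4 overlapped in normal mice (8.74 to 12.3 and 6.17 to 9.48 FPKM), as did those of Ccl2 and Cxcl1 (0.351 to 1.13 and 0.282 to 0.80 FPKM). At 2Ws the order was the same, with Ccl9 at 20.1, Ccl3 at 9.78, Ccl4 at 6.50 and Cxcl2 at 5.73 FPKM, and the intervals of Ccl4 (5.08 to 8.20 FPKM) overlapped those of both Ccl3 (8.14 to 11.7) and Cxcl2 (4.95 to 6.59). The order at 3Ws differed, with Cxcl2 at 24.3 FPKM next below Ccl6, above Ccl9 (12.9), Ccl4 (10.4) and Ccl3 (3.98). The intervals of Ccl9 and Ccl4 overlapped there (11.9 to 13.9 and 8.59 to 12.4 FPKM). Order between genes also depends on the length used, here that of all exons. Set over the longest coding transcript, Cxcl2 at 2Ws (10.7 FPKM) stood above Ccl4 (6.50) and Ccl3 (9.78), though within the interval of Ccl3. In normal mice Cxcl1 (0.969 FPKM) then stood above Ccl2 (0.923), and at 3Ws Cxcl2 (45.4 FPKM) remained next below Ccl6.

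**Figure D1:**
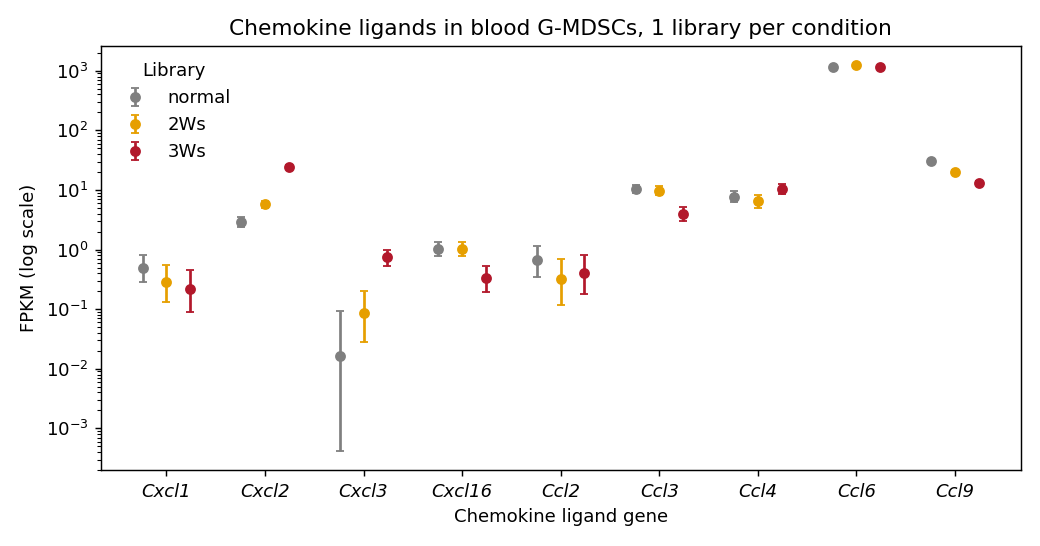
FPKM of the 9 chemokine ligand genes on a log axis, in the library of normal mice, of mice bearing tumors for 2 weeks (2Ws) and for 3 weeks (3Ws), with exact 95% counting intervals as bars. Cxcl2 lies at 2.90, 5.73 and 24.3 FPKM, Ccl9 at 30.8, 20.1 and 12.9 FPKM, and Ccl6 stays between 1143 and 1226 FPKM.

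Of the 9 genes, 6 reached 1 FPKM in a library and could be compared. At 2Ws against normal none was called, while 1.29% of all 11269 genes compared were called higher and 1.22% lower. At 3Ws against normal Cxcl2 was called higher and Ccl3 and Ccl9 lower, beside 2.6% higher and 7.89% lower of all 11103 genes. At 3Ws against 2Ws Cxcl2 was called higher and Ccl3 lower, beside 2% and 7.37% of all 11119 genes. The median log2 ratio of the 6 genes was -0.04, -0.30 and -0.35 in these comparisons, beside 0.00, -0.24 and -0.21 for all genes compared, so the middle of the group lay near that of all genes while single members lay far from it. By the read-based rule, all 9 could be tested. It called none at 2Ws against normal, where 0.724% of all genes tested were called higher and 0.915% lower. At 3Ws against normal it called Cxcl2 and Cxcl3 higher and Cxcl16, Ccl3 and Ccl9 lower, beside 1.91% higher and 13.7% lower. At 3Ws against 2Ws it called Cxcl2 and Cxcl3 higher and Cxcl16 and Ccl3 lower, beside 1.6% and 12.7%.

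**Figure D2:**
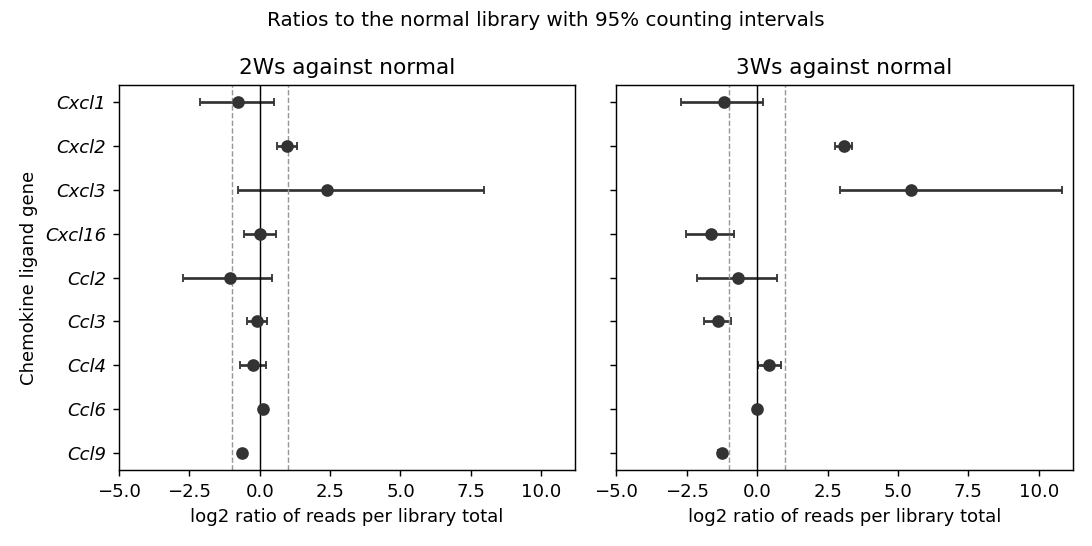
Log2 ratio of reads per library total for the 9 chemokine ligand genes at 2Ws against normal (left) and 3Ws against normal (right), with 95% counting intervals, a solid line at no difference and dashed lines at 2-fold. At 3Ws only Cxcl2 and Cxcl3 lie wholly above the upper dashed line, and Ccl9 lies wholly below the lower one.

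Cxcl2, the ligand by which neutrophils recruit further neutrophils, differed most among the genes above 1 FPKM. It had 104 reads in normal mice (2.90 FPKM, interval 2.37 to 3.52), 196 at 2Ws (5.73 FPKM, 4.95 to 6.59) and 859 at 3Ws (24.3 FPKM, 22.7 to 26.0). The 3 intervals did not overlap, and the level was higher at each later time. At 2Ws the level was 1.97-fold that of normal mice (1.55 to 2.53), a log2 ratio of 0.79 on FPKM plus 1 that missed the 2-fold rule and ranked 217 from the highest of 11269 genes. At 3Ws it was 8.38-fold that of normal mice (6.83 to 10.4), a log2 ratio of 2.70 that ranked 15 from the highest of 11103 genes. The 3Ws level was 4.25-fold that of 2Ws (3.63 to 4.99). Of the summed FPKM of the 9 genes, Cxcl2 took 2.03% at 3Ws, against 0.451% at 2Ws and 0.242% in normal mice.

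Cxcl3, the close relative of Cxcl2, was barely detected in normal mice. It had 1, 5 and 44 reads in normal, 2Ws and 3Ws, or 0.0165, 0.0864 and 0.737 FPKM. The 3Ws interval (0.535 to 0.989 FPKM) lay above those of normal mice (0.000418 to 0.0919) and 2Ws (0.0280 to 0.202), which overlapped each other. The 3Ws level was 44.6-fold that of normal mice, but with a single read in normal mice the interval ran from 7.61 to 1803. Against 2Ws it was 8.53-fold (3.39 to 27.6). Its FPKM is low partly because the exons counted span 3498 bases, 3.44 times the 1016 bases of its coding transcript. Set over the coding transcript it stood at 0.0568, 0.297 and 2.54 FPKM in normal, 2Ws and 3Ws, and then Cxcl3 was called higher at 3Ws by the 2-fold rule too. Its reads were 0.952%, 2.49% and 4.87% of those of Cxcl3 and Cxcl2 together, with intervals that overlapped (0.0241% to 5.19%, 0.813% to 5.71% and 3.56% to 6.49%). Overlap of intervals is not a test of a fixed share, so whether Cxcl3 differed beyond a fixed share of the Cxcl2 difference was not tested. How many Cxcl3 reads came from the shared bases was not tested either. Exon sequence of Cxcl3 recurs as runs of 50 bases in 78 other genes, Cxcl2 among them.

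Cxcl1, the third neighbour, did not follow Cxcl2. It had 16, 9 and 7 reads in normal, 2Ws and 3Ws, or 0.493, 0.290 and 0.219 FPKM, with overlapping intervals. The 3Ws level was 0.444-fold that of normal mice (0.154 to 1.14) and the 2Ws level 0.589-fold (0.229 to 1.42), so a difference was not detectable at this depth in either direction. Set against Cxcl2 in the same library, its reads were 13.3% of the sum of both in normal mice (7.82% to 20.7%), 4.39% at 2Ws (2.03% to 8.17%) and 0.808% at 3Ws (0.326% to 1.66%). The 3Ws share lay below both others without overlap. Cxcl1 and Cxcl2 hold the same kappa B letters in the windows shown above.

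Ccl3 and Ccl4, inflammatory chemokines that attract monocytes and T cells and are often induced together, differed from each other at 3Ws. Ccl3 had 138, 124 and 52 reads in normal, 2Ws and 3Ws (10.4, 9.78 and 3.98 FPKM). Its 3Ws interval (2.97 to 5.21 FPKM) lay below those of 2Ws (8.14 to 11.7) and normal mice (8.74 to 12.3), which overlapped. Ccl3 was 2.62-fold lower at 3Ws than in normal mice (1.89 to 3.67) and 2.46-fold lower than at 2Ws (1.77 to 3.47), and the log2 ratios were -1.20 and -1.12. The second of these misses the 2-fold rule once ratios are centred on the median gene (-0.95).

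Ccl4 had 88, 71 and 117 reads in normal, 2Ws and 3Ws (7.70, 6.50 and 10.4 FPKM). Its 3Ws level was 1.35-fold that of normal mice (1.01 to 1.80) and 1.60-fold that of 2Ws (1.18 to 2.18), and it was not called in any comparison. Ccl3 made up 61.1% of the reads of the pair in normal mice (54.4% to 67.5%) and 63.6% at 2Ws (56.4% to 70.3%), but 30.8% at 3Ws (23.9% to 38.3%). The 3Ws share did not overlap the others, and a share within a library does not depend on how libraries are scaled.

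**Figure D3:**
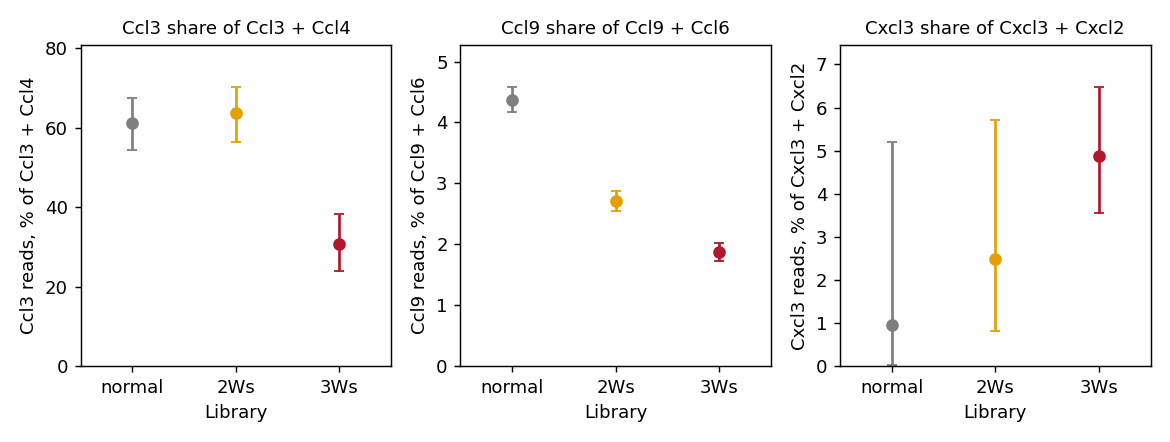
Reads of 1 gene as a percentage of the reads of a related pair in normal, 2Ws and 3Ws libraries, for Ccl3 in Ccl3 + Ccl4, Ccl9 in Ccl9 + Ccl6 and Cxcl3 in Cxcl3 + Cxcl2, with exact 95% intervals and axes that start at 0. The Ccl3 share is 61.1%, 63.6% and 30.8%, the Ccl9 share is 4.38%, 2.71% and 1.87%, and the Cxcl3 intervals overlap.

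Ccl6 and Ccl9 are rodent CC chemokines that myeloid cells make without stimulation, and both bind Ccr1. They are neighbours, but their patterns differed. Ccl6 had 35555, 36423 and 35112 reads in normal, 2Ws and 3Ws. The ratio of Ccl6 was 1.07-fold at 2Ws (1.06 to 1.09) and 1.00-fold at 3Ws (0.987 to 1.02), each against normal mice. Against the median gene, which was lower at 3Ws, its log2 ratio was 0.18. At 3Ws against 2Ws it was 0.934-fold (0.921 to 0.948), a log2 ratio of -0.10 that turns to 0.07 when centred on the median gene.

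Ccl9 was lower at each later time. It had 1627 reads in normal mice (30.8 FPKM, 29.4 to 32.4), 1014 at 2Ws (20.1 FPKM, 18.9 to 21.4) and 670 at 3Ws (12.9 FPKM, 11.9 to 13.9), with no overlap of intervals. It was 1.53-fold lower at 2Ws (1.42 to 1.66) and 2.39-fold lower at 3Ws (2.19 to 2.62), each against normal mice, and 1.56-fold lower at 3Ws than at 2Ws (1.42 to 1.72). Among all genes its 3Ws log2 ratio of -1.20 ranked 527 from the lowest, close to that of Ccl3 at 530, of 11103. Its share of the reads of Ccl9 and Ccl6 was 4.38%, 2.71% and 1.87% in normal, 2Ws and 3Ws, again without overlap. Exon sequence of Ccl9 recurs in 463 other genes as runs of 50 bases, and how reads of such runs were placed was not tested.

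Ccl2, the monocyte chemoattractant, was close to the limit of detection with 13, 6 and 8 reads (0.659, 0.319 and 0.412 FPKM) in normal, 2Ws and 3Ws. Its ratio was 0.624-fold at 3Ws (0.224 to 1.63) and 0.483-fold at 2Ws (0.151 to 1.36) against normal mice, so no difference was detectable at this depth. Cxcl16 had 54 reads in normal mice and 52 at 2Ws (1.03 and 1.04 FPKM), but 17 at 3Ws (0.330 FPKM, 0.192 to 0.528). It was 3.13-fold lower at 3Ws than in normal mice (1.79 to 5.76), and its log2 ratio of -0.61 missed the 2-fold rule because the added 1 FPKM is as large as its level. The proteases known to shed Cxcl16 were not called in any comparison, with Adam10 at 28.8, 29.1 and 32.1 FPKM and Adam17 at 16.8, 16.0 and 16.3 FPKM in normal, 2Ws and 3Ws.

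Of the 8 receptors of these ligands examined, 5 reached 1 FPKM. At 2Ws against normal 1 was called higher and 0 lower, beside 1.29% and 1.22% of all genes compared. At 3Ws against normal 1 was called higher and 1 lower, beside 2.6% and 7.89%. At 3Ws against 2Ws 1 was called higher and 2 lower, beside 2% and 7.37%. Cxcr2, which binds Cxcl1, Cxcl2 and Cxcl3, was among the most abundant at 1027, 1031 and 1540 FPKM in normal, 2Ws and 3Ws. It was 1.499-fold at 3Ws against normal mice (1.48 to 1.52), short of the 2-fold rule. Ccr1, which binds Ccl3, Ccl6 and Ccl9, stood at 359.6, 349.2 and 553.3 FPKM and was 1.54-fold at 3Ws (1.51 to 1.57). Cxcr1 was called higher at 3Ws, with 69.01 FPKM against 33.1 in normal mice and 20.99 at 2Ws. Ccr2, the receptor of Ccl2 and a mark of inflammatory monocytes, was called lower at 3Ws, with 6.29 FPKM against 29.2 in normal mice and 17.5 at 2Ws. Ccr3, found on eosinophils, was called higher at 2Ws, with 15.8 FPKM against 5.13 in normal mice, and lower at 3Ws (2.22 FPKM) than at 2Ws. The read-based rule also called Ccr3 lower at 3Ws against normal mice, and the scavenger receptor Ackr2 (0.314, 0.522 and 0.0749 FPKM in normal, 2Ws and 3Ws) lower at 3Ws against either library. It called 13.7% of all genes tested lower at 3Ws against normal and 12.7% against 2Ws. Levels of the neutrophil receptors thus differed less than that of Cxcl2.

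Another 30 chemokine ligand genes were listed, of which 27 had a value and 7 reached 1 FPKM. By the 2-fold rule none was called at 2Ws against normal among the 6 compared, beside 1.29% higher and 1.22% lower of all genes. At 3Ws 4 of 7 were called lower and none higher against either library. Of all genes compared, 7.89% were called lower and 2.6% higher against normal, and 7.37% and 2% against 2Ws. The lower ones were Cxcl13, a B cell attractant (13.5, 21.1 and 2.34 FPKM in normal, 2Ws and 3Ws), the platelet chemokines Pf4 (71.4, 66.8 and 11.1 FPKM) and Ppbp (19.6, 34.2 and 5.57 FPKM), and the eosinophil attractant Ccl24 (6.64, 9.01 and 0.904 FPKM). Ccl5, made by T and NK cells, stood at 4.03, 4.66 and 8.24 FPKM. Its 3Ws level was 2.04-fold that of normal mice (1.51 to 2.78), and its log2 ratio of 0.88 was not called. The interferon-induced ligands Cxcl9 (0.823, 0.361 and 1.42 FPKM) and Cxcl10 (3.33, 1.56 and 1.82 FPKM) were not called either by the 2-fold rule. The read-based rule called both lower at 2Ws against normal mice, by 2.28-fold for Cxcl9 (1.29 to 4.203) and 2.14-fold for Cxcl10 (1.56 to 2.97), and called Cxcl9 higher at 3Ws against 2Ws, at 3.93-fold (2.32 to 6.998). It also called Cxcl12, which stayed under 1 FPKM, lower at 3Ws against either library. Of all genes tested, the read-based rule called 0.915% lower at 2Ws against normal. It called 13.7% lower and 1.91% higher at 3Ws against normal, and 12.7% and 1.6% against 2Ws. At 3Ws against normal mice, the 2-fold rule called no chemokine ligand other than Cxcl2 higher, whereas the read-based rule also called Cxcl3 and Ccl5.

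**Figure D4:**
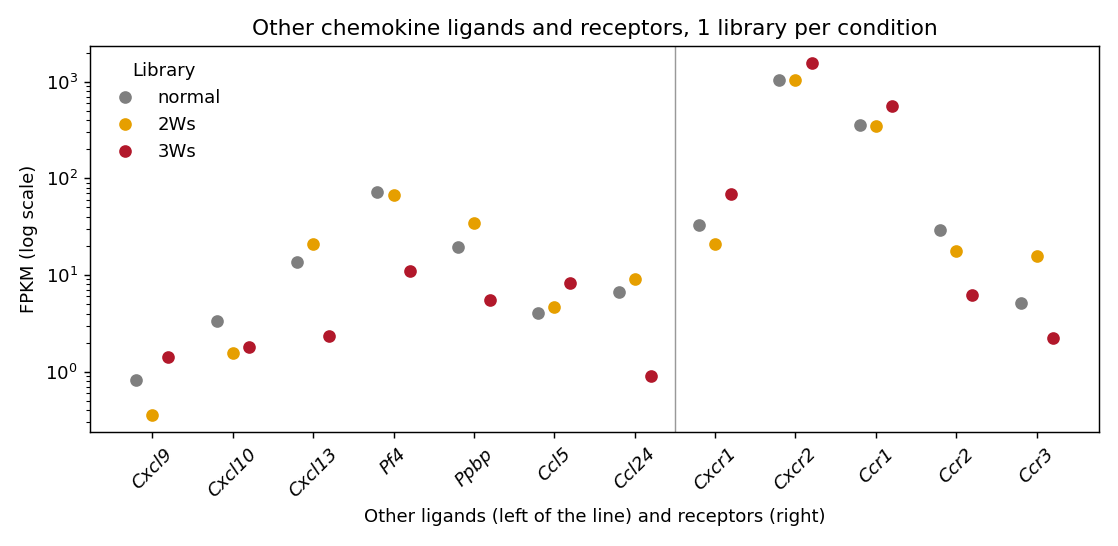
FPKM on a log axis of the 7 other chemokine ligands (left of the line) and the 5 receptors (right) that reached 1 FPKM, in normal, 2Ws and 3Ws libraries. Pf4 lies at 71.4, 66.8 and 11.1 FPKM, Cxcr1 at 33.1, 20.99 and 69.01 FPKM and Ccr2 at 29.2, 17.5 and 6.29 FPKM.

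Cxcl2 is known as an early response gene of inflammation, so 17 genes that are induced with it or that limit it were set beside it. By the 2-fold rule none of the 14 compared was called at 2Ws against normal, beside 1.29% higher and 1.22% lower of all genes. At 3Ws against normal 2 were called higher and none lower, beside 2.6% higher and 7.89% lower of all genes compared. At 3Ws against 2Ws 1 was called higher and none lower, beside 2% and 7.37%. The cytokine gene Osm stood at 26.2, 31.3 and 58.1 FPKM in normal, 2Ws and 3Ws, and Zfp36l1, an mRNA decay factor, at 13.4, 12.4 and 27.9 FPKM. Il1b (1635, 1947 and 1885 FPKM), Tnf (3.87, 4.24 and 4.75 FPKM) and the NF-kB inhibitor genes Nfkbia (107.7, 70.7 and 114.2 FPKM), Nfkbiz (33.7, 35.7 and 42.9 FPKM) and Tnfaip3 (7.31, 6.31 and 4.83 FPKM) were not called at 3Ws. Ptgs2, which encodes a prostaglandin synthase, stood at 7.57, 11.1 and 5.23 FPKM, and at 3Ws it was 2.13-fold lower than at 2Ws (1.89 to 2.40), which the read-based rule and pseudocounts of 0.1 and 0.5 FPKM called lower. Against normal mice, Sod2 was 1.62-fold lower at 3Ws (7.29, 5.96 and 4.50 FPKM in normal, 2Ws and 3Ws) and Icam1 1.53-fold lower (7.44, 6.29 and 4.86 FPKM), and neither was called. Zc3h12a (29.4, 24.0 and 21.9 FPKM), Nlrp3 (111.4, 116.6 and 96.6 FPKM) and Dusp1 (687.4, 679.3 and 752.7 FPKM) were not called. Zfp36, which binds ATTTA pentamers and shortens the life of chemokine mRNAs, stood at 226.5, 228.3 and 256.4 FPKM and was not called. The 3′ untranslated region of Cxcl2 holds 11 ATTTA pentamers in 734 bases, that of Cxcl1 7 and that of Cxcl3 5. Ccl3 holds 5 in 409 bases and Ccl9 5 in 2465 bases, while Ccl6 holds 4, Ccl4 and Cxcl16 2 each and Ccl2 1. Among 9397 expressed coding genes the median was 1, in regions with a median length of 914 bases. Of these genes, 18.9% held 5 or more and 14.7% held 6 or more. These counts are not scaled to length. At 3Ws against normal, Cxcl2 was called higher and Ccl3 and Ccl9 lower, and each of these holds 5 or more. The part of the pentamers in these differences was not tested.

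Markers of other blood cells also differed between these libraries. Monocytes and macrophages are myeloid cells, and all 9 ligands, Cxcl2 and Ccl6 included, are ones that myeloid cells are known to make. The 15 listed markers of monocytes and macrophages summed to 844, 697 and 333 FPKM in normal, 2Ws and 3Ws. At 3Ws against normal 12 of the 14 compared were called lower and none higher, beside 7.89% lower and 2.6% higher of all genes compared. The 5 markers of tissue macrophages summed to 139.9, 50.6 and 51.9 FPKM. Single ones went both ways at 3Ws against 2Ws, with 1 called higher and 1 lower, beside 2% and 7.37% of all genes compared. These were Marco (78.4, 16.9 and 41.8 FPKM in normal, 2Ws and 3Ws) and Timd4 (39.4, 28.1 and 5.61 FPKM). Dendritic cell markers summed to 26.1, 14.7 and 4.18 FPKM, B cell markers to 206.1, 291.3 and 42.0 FPKM, and platelet markers, which include Pf4 and Ppbp, to 100.3, 116.9 and 20.3 FPKM. Marker sums of T cells (5.77, 11.6 and 4.85 FPKM), NK cells (6.45, 5.93 and 9.34 FPKM), eosinophils (26.1, 42.3 and 26.1 FPKM) and basophils and mast cells (6.72, 2.98 and 0.692 FPKM) were small. The eosinophil sum at 3Ws was mostly Siglecf (17.1, 19.7 and 23.0 FPKM). By the read-based rule 3 of the 5 eosinophil markers were called lower at 3Ws against normal and none higher, beside 13.7% lower and 1.91% higher of all genes tested. Erythroid markers summed to 20.2, 8.54 and 97.0 FPKM. No listed marker with a value was at 0 in all libraries. At 3Ws the monocyte and macrophage markers thus moved in the direction of Ccl3, Ccl9 and Cxcl16 and opposite to Cxcl2. Ccl4 also went opposite to these markers, at 1.35-fold that of normal mice (1.01 to 1.80, not called), and Ccl2 showed no detectable difference. Ccl6 stood at 1.00-fold that of normal mice (0.987 to 1.02). The part of monocytes and macrophages in these results was not tested. In bulk RNA, fewer cells of a type and less RNA per cell cannot be told apart.

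**Figure D5:**
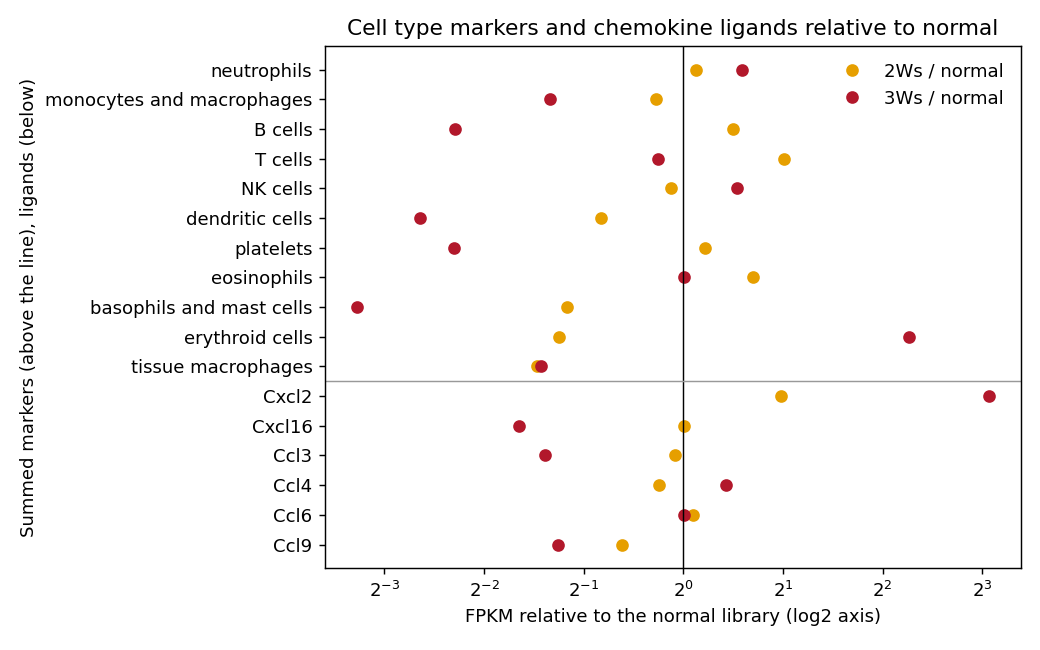
Summed FPKM of cell type markers (above the line) and FPKM of the 6 chemokine ligands that reached 1 FPKM (below), relative to the normal library on a log2 axis, for 2Ws and 3Ws. Monocyte and macrophage markers stand at 0.825 and 0.395 of normal, and Cxcl2 at 1.97 and 8.38. The sum of neutrophil markers, of which 2 were called higher and 2 lower at 3Ws, stands at 1.09 and 1.502. Eosinophil markers sum to 1.00 of normal at 3Ws, although the read-based rule called 3 of 5 lower.

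For the 2 members with the highest mean, Ccl6 and Ccl9, genes of a like pattern were sought among 6088 genes with at least 5 FPKM and 50 reads in a library. Likeness was the distance in the log2 ratios of 2Ws and 3Ws to normal, so it rests on 3 libraries only. Nearest to Ccl6 were Sun2, Klf2, Ing5, Atp2b1 and Hnrnpul2, at distances of 0.0047 to 0.0090. Nearest to Ccl9 were Gbp9 (54.5, 35.7 and 22.8 FPKM in normal, 2Ws and 3Ws, distance 0.029), AI413582 (0.035), Mrps16 (0.051), Ube2l6 (0.066) and Agrn (0.108).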

How the data were processed

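The authors aligned the reads to GRCm38 with HISAT2 2.1.0 and named Bowtie2 2.2.3 for building the index (versions from the submitters' processing notes), and deposited 1 value in FPKM per Ensembl gene and library. Which annotation was used, and whether strand was, is not given in the sources used here. Of 26655 genes, 26565 were named through GENCODE M21. Reads were recovered as FPKM times summed exon length times a library total. Of 23378 genes above 0, 88.6% gave whole numbers, to within 0.001, in all libraries. Recovered reads sum to 105.7% to 105.9% of the totals of 17325747, 16549246 and 17075753 in normal, 2Ws and 3Ws.

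The 2-fold rule on FPKM plus 1, the exact binomial test with Benjamini-Hochberg adjustment over all genes with whole reads, and exact intervals were computed with Python 3.11.15, numpy 2.4.6, pandas 2.3.3 and scipy 1.17.1, and proteins were aligned with Biopython 1.88 from GENCODE coding sequences. Scripts were tested on simulated data. Promoters came from RefSeq. The 9 genes and all lists were chosen with earlier results of these data known. Named were all 9 genes, other listed ligands, receptors and early response genes at 1 FPKM or more in a library, and the 5 nearest genes by pattern. A further listed receptor is not reported here and was left out of the counts. Named beside them were the markers' sums, markers called among those of neutrophils, Siglecf, Marco, Timd4, Cxcl12, Ackr2, Adam10, Adam17, Zmynd15, Ddx3y and Xist. Other settings covered the pseudocount, centring, scaling, the filter, the fold and the read test, and 1 was added after the data were seen, the length of the longest coding transcript.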

Additional observations from a re-analysis of the deposited data

How the results depend on the processing

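No paired analysis was possible because each condition has 1 library. Of 162 alternative values of the log2 ratios of the 9 genes, 155 shifted by no more than the gene's own counting error. Another 7 shifted by more, and 0 of the called ratios reversed. For genes with few reads that limit is wide and can hardly be exceeded. With a pseudocount of 0.1 FPKM, the ratio at 3Ws against normal went from 0.77 to 2.84 for Cxcl3 and from -0.61 to -1.40 for Cxcl16. Both are counted among the 155. At 2Ws against normal no member was called, other than under a 1.5-fold rule, which called 2 (Cxcl2 higher, Ccl9 lower). At 3Ws against normal 3 members were called, against 1 (Cxcl2) under a 4-fold rule and 5 under the read test. At 3Ws against 2Ws 2 were called, against 1 (Cxcl2) after centring on the median gene, 5 under the 1.5-fold rule, 0 under the 4-fold rule and 4 under the read test. Over the coding transcript length, added after the data were seen, 4 and 3 members were called at 3Ws, since Cxcl3 then passed. With a pseudocount of 0.1 FPKM, Cxcl16 was also called lower at 3Ws.

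Among other ligands at 2Ws against normal, where none was called, 1 was called with a pseudocount of 0.1 FPKM, 3 under the 1.5-fold rule and 2 under the read test. Receptor calls at 2Ws against normal numbered 1, but 3 under the 1.5-fold rule and 0 under the 4-fold rule. At 3Ws against normal they numbered 2, but 4 under the 1.5-fold rule and the read test and 1 under the 4-fold rule, and at 3Ws against 2Ws 3, but 1 under the 4-fold rule. For the early response list, the 1.5-fold rule called 1 in place of 0 at 2Ws against normal, the 4-fold rule 0 in place of 2 at 3Ws against normal and 0 in place of 1 at 3Ws against 2Ws. In that last comparison pseudocounts of 0.1 and 0.5 FPKM, centring and the read test each called 2, and the 1.5-fold rule 4. These differences follow from the rules themselves. Shares over all genes were counted only for the 2-fold rule and the read test. Counts under the other settings, for members and for the other lists, thus have no such share beside them. Values relative to Actb, values without hemoglobin, immunoglobulin and mitochondrial genes and a filter at 5 FPKM left each of these counts within 1.5 times. Dropping the filter cannot change a call, because genes under 1 FPKM in both libraries cannot reach 2-fold once 1 FPKM is added.

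With 1 library per condition, no value has an error between mice. Depth limits Cxcl1, Cxcl3 and Ccl2, where 3 reads are worth 0.0495 to 0.159 FPKM.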
